A study of Homo sapiens with 12 samples.

Results

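Fibronectin (FN1), 3 thrombospondins (THBS1, THBS2 and THBS3), the matricellular genes TGFBI, SPARC, TNC and POSTN, fibulin 1 (FBLN1) and fibrillin 1 (FBN1) were followed in HK-2 cells exposed to a nephrotoxic drug. These 10 genes were taken by gene name from a count table of 58735 genes, and each name matched 1 gene. HK-2 is an immortalized epithelial line of the human proximal tubule, grown here with 10% fetal bovine serum, and all samples are the same line. The study compared a control group given water (H2O) with cells treated for 48 h with the iodinated contrast medium iohexol (75 mg I/mL), the platinum compound cisplatin (5 μM) or the glycopeptide antibiotic vancomycin (4 mM). Poly(A) RNA was sequenced in 3 samples of each group, 12 in all. The labels do not say whether the samples of a group came from separate cultures, so that p-values measure the spread between these samples, which may be technical.

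Matrix glycoproteins are secreted proteins that cells assemble around themselves or release into the matrix. Fibronectin and the fibrillins build fibers, fibronectin being bound by integrins and fibrillin forming the microfibrils that hold latent TGF-beta. Matricellular proteins such as thrombospondin 1, tenascin C and SPARC add little to the structure of the matrix and instead alter adhesion, growth factor activity and matrix assembly. In the kidney these genes are known from tubular injury and fibrosis, where injured tubular cells and interstitial fibroblasts make more of several of them, and many of them respond to TGF-beta.

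Total counts were 14057282 to 18177109 per sample. Levels are given as CPM, counts scaled to a common library total after TMM scaling, a correction for differences in library composition. The 3rd iohexol library stood furthest from its group, with a chi-square over degrees of freedom of 16.7 and 15.9 against the other 2 iohexol libraries, which gave 3.71 between themselves, and values without it stand beside the results it changes. At these depths 3 counts stood for 0.177 to 0.218 CPM, a limit that covers counting error only. A gene was called up-regulated or down-regulated at an adjusted p under 0.05 by edgeR's quasi-likelihood test with Benjamini-Hochberg adjustment over all genes tested. Of the markers of the labelled cell type, 5 or 6 of 6 epithelial markers had at least 3 counts in every sample of each group, but the epithelial cadherin CDH1 was at 0.502 CPM or less, the proximal tubule receptor LRP2 at 0.188 CPM or less and the organic anion transporter SLC22A6 at 0 in all 12 samples. Of 14 proximal tubule markers, 7 to 10 had at least 3 counts in every sample of a group. Leukocyte markers summed to at most 2.06 CPM and endothelial markers to at most 4.21 CPM.

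The DNA just before the start sites of FN1, THBS1 and TNC is shown because these 3 genes had the widest changes between the drugs. The sequences are those of RefSeq on GRCh38.p14, run 5′ to 3′ on the gene's own strand, and leave out bases within exons of protein-coding genes of GENCODE 29. Capitals mark matches, on either strand, to the letters of a cyclic AMP response element (CRE), an AP-1 site, a TEAD site, a CCAAT box, a GC box or a TATA motif, and overlapping matches form 1 run of capitals.
FN1, chr2:215436173-215436318, minus strand: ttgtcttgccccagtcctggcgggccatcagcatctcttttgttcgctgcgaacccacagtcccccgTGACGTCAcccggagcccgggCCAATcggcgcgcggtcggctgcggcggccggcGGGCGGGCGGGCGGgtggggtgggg
THBS1, chr15:39580829-39581078, plus strand: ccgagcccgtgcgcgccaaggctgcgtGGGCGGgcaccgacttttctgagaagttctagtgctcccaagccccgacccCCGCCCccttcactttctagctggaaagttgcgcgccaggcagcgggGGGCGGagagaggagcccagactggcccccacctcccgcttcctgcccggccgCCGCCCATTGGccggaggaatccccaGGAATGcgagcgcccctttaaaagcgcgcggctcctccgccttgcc
TNC, chr9:115118258-115118407, minus strand: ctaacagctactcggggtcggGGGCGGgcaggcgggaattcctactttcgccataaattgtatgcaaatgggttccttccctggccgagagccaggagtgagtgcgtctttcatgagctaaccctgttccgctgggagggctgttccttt
The FN1 stretch held the CRE, 183 bases before the RefSeq start site, a CCAAT box 162 bases before it and 3 GC boxes, of which 2 pairs overlapped. THBS1 had a TEAD match 46 bases and a CCAAT box 66 bases before its start site, with 4 GC boxes upstream of both, and TNC had a single GC box 229 bases upstream in the stretch shown.

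All 10 genes had a RefSeq window of 300 bases (250 before and 50 after the start site), and THBS3 had 2. Of 35116 such windows, 1.85% held the CRE letters TGACGTCA, and among the 10 genes FN1 was the only one with them. The TEAD letters GGAATG were in 14.0% of windows and in those of THBS1, THBS2, SPARC and FBN1. The AP-1 letters TGACTCA, in 4.95% of windows, were found for POSTN alone among the 10. The letters CCAAT were in 34.6% of windows and in those of FN1, THBS1 and THBS3. GC boxes with the letters GGGCGG, in 45.0% of windows, were present for FN1, THBS1, THBS3, TGFBI, TNC and FBLN1. The TATA motif was searched as TATAA, found in 20.4% of windows, and was present for FN1, THBS2, TNC and POSTN. A match is a match of letters and was not tested as a binding site.

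FN1, which encodes fibronectin, was the most abundant of the 10 genes in every group and the gene with the most counts of the whole table in all control, iohexol and vancomycin libraries. Its share of all counts was 2.04% to 2.13% in control libraries and 2.11% to 2.49% in iohexol libraries. In cisplatin libraries it was 0.750% to 0.805% and in vancomycin libraries 3.45% to 4.70%. In the 3 cisplatin libraries it was the gene with the 3rd most counts. The other 9 genes together took 0.410% to 0.425% of counts in control libraries, 0.221% to 0.239% in iohexol, 0.269% to 0.274% in cisplatin and 0.389% to 0.419% in vancomycin libraries.

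**Figure D1:**
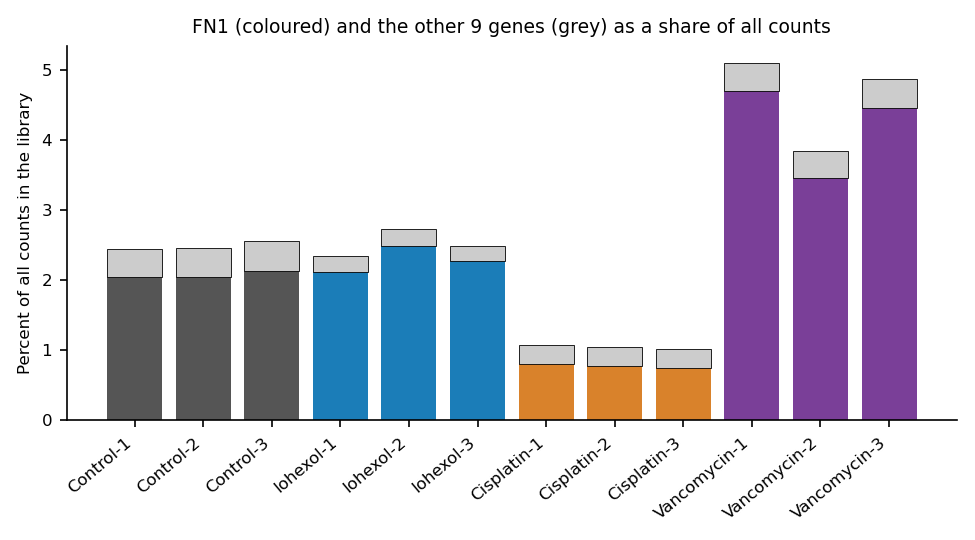
Percent of all counts of each of the 12 libraries that fell on FN1 and on the other 9 genes together, by group. FN1 took 0.750% to 0.805% in the cisplatin libraries and 3.45% to 4.70% in the vancomycin libraries, while the share of the other 9 genes was lowest with iohexol, at 0.221% to 0.239%.

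Per length, as CPM per kb of summed exons, the control group had the order FN1 (1237), TGFBI (185), SPARC (146), THBS1 (132), FBLN1 (59.6), FBN1 (16.0), THBS3 (14.1), THBS2 (13.6), TNC (9.47) and POSTN (0.0279). The samples of neighbors in this order overlapped between FBN1 and THBS3 and between THBS3 and THBS2, and for no other neighbors. With iohexol SPARC (93.3 CPM per kb) and FBLN1 (71.8) stood next to FN1, and THBS1 (49.1) and TGFBI (47.1) followed with overlapping samples. TNC (21.4) had moved ahead of THBS3 (17.6), with which it overlapped, THBS2 (8.59) and FBN1 (6.26). In the cisplatin group FN1 (398) remained first, followed by SPARC (137), TGFBI (70.5), THBS1 (55.0), FBLN1 (42.9) and THBS2 (19.5), and TNC (4.22) was the lowest but POSTN, with overlap only between THBS3 (11.3) and FBN1 (10.8). With vancomycin FN1 (2718) was followed by SPARC (244), TGFBI (222) and FBLN1 (83.4), and THBS1 (5.85) had the lowest level per length except POSTN. There TNC (39.4) overlapped THBS3 (34.6), and FBN1 (17.9) overlapped THBS2 (15.3). Summed exons cover all annotated transcripts of a gene, 27 for FN1, 15 for TGFBI and 9 for SPARC. The order by the length of the transcripts present may differ and was not tested.

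**Figure D2:**
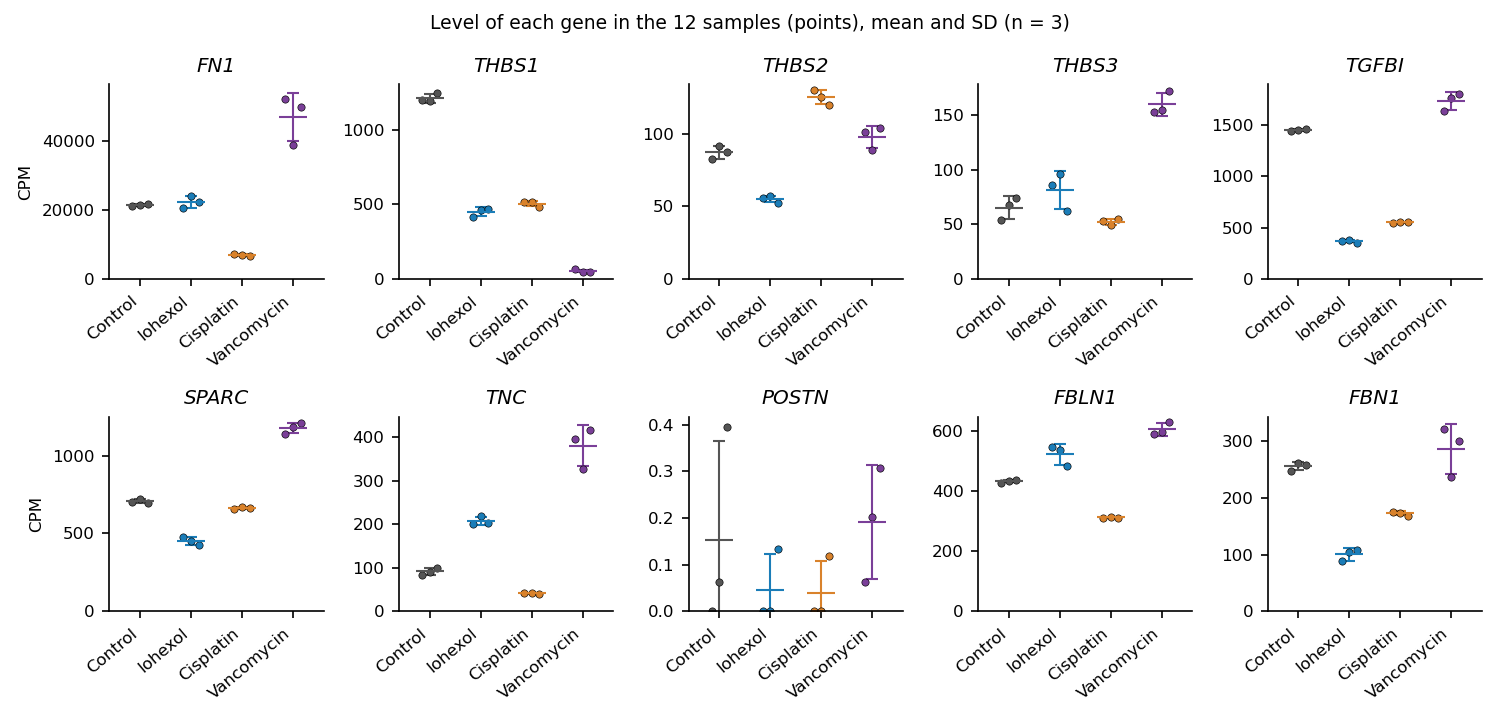
CPM of each of the 10 genes in every sample, by group, with the group mean and SD of 3 samples, each gene on its own axis from 0 (the lower SD of POSTN is cut at 0). FN1 was lowest with cisplatin and highest with vancomycin, THBS1 and TGFBI were lower with iohexol and cisplatin than in the control group, and THBS1 was at 48.0 to 63.6 CPM with vancomycin.

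FN1 (ENSG00000115414, chromosome 2, 215360440 to 215436172, minus strand, GRCh38) was down-regulated by cisplatin and up-regulated by vancomycin, and was not called with iohexol. Its level was 21081, 21339 and 21822 CPM in the 3 control samples and 20511, 23972 and 22207 CPM with iohexol. The cisplatin samples had 7145, 6854 and 6667 CPM and the vancomycin samples 52329, 39049 and 49826 CPM. All cisplatin samples lay below and all vancomycin samples above the control samples, while the iohexol samples overlapped them and spread more widely. Compared to the control group, the log2 fold change was -1.64 with cisplatin (SE 0.041, adjusted p = 1.15e-14, edgeR), a 3.11-fold lower level. Vancomycin gave a log2 fold change of 1.10 (SE 0.092, adjusted p = 4.45e-10), a 2.14-fold higher level. With iohexol the log2 fold change was 0.072 (95% interval -0.083 to 0.23, adjusted p = 0.517). In RNA of whole cultures, fewer cells of a kind and less RNA of a gene per cell cannot be told apart, here and for the genes that follow.

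Of the thrombospondins, THBS1 was down-regulated by all 3 drugs, and by far the most with vancomycin. THBS1 (ENSG00000137801, chromosome 15, 39581079 to 39599466, plus strand) encodes a trimeric glycoprotein that can activate latent TGF-beta and inhibits blood vessel growth. The control samples had 1200.2, 1191 and 1245 CPM, and the vancomycin samples 63.6, 49.1 and 48.0 CPM. With iohexol its level was 415, 462 and 472 CPM, and with cisplatin 513, 515 and 483 CPM. The 3 drug groups lay wholly below the control samples, and the vancomycin samples wholly below those of the other drugs. The log2 fold change was -1.41 with iohexol (SE 0.080, adjusted p = 3.6e-07) and -1.27 with cisplatin (SE 0.052, adjusted p = 1.42e-12). Vancomycin gave -4.54 (SE 0.11, adjusted p = 1.6e-19), a 23.3-fold lower level. By p-value THBS1 was the 3rd of 15819 genes tested with vancomycin.

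THBS2 (ENSG00000186340, chromosome 6, 169215780 to 169254044, minus strand), the close relative of THBS1 that also forms trimers, took other directions. It had 82.8, 91.9 and 87.2 CPM in the control samples, 55.8, 56.8 and 52.6 with iohexol, 130.2, 125 and 120.3 with cisplatin and 101, 89.1 and 104 with vancomycin. Iohexol samples were all below and cisplatin samples all above the control samples, and the vancomycin samples overlapped them. THBS2 was down-regulated by iohexol (log2 fold change -0.65, SE 0.091, adjusted p = 0.00041) and was the only one of the 9 tested genes up-regulated by cisplatin under TMM scaling (0.52, SE 0.066, adjusted p = 2.84e-06). With vancomycin it was not called (0.12, 95% interval -0.067 to 0.32, adjusted p = 0.26).

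THBS3 (ENSG00000169231, chromosome 1, 155195588 to 155209051, minus strand) belongs to the thrombospondins that form pentamers. Its level was 54.1, 67.9 and 74.3 CPM in the control samples, 85.9, 96.2 and 61.9 with iohexol, 53.1, 49.2 and 54.5 with cisplatin and 153, 155 and 172 with vancomycin. Vancomycin samples were all above the control samples, whereas both other drug groups overlapped them, and control and iohexol samples spread widely. The log2 fold change with vancomycin was 1.25 (SE 0.10, adjusted p = 3.71e-10). Cisplatin gave -0.33 (SE 0.10, adjusted p = 0.00701), which with library size alone in place of TMM scaling was -0.11 (adjusted p = 0.346). With iohexol THBS3 was not called (0.33, 95% interval -0.013 to 0.68, adjusted p = 0.162), but without the 3rd iohexol sample the log2 fold change was 0.50 (adjusted p = 0.00162). Of the THBS3 exon bases 25.4% lie opposite exons of other genes, 1027 of them in the antisense gene AC234582.1 (336 counts in the 12 samples, against 16768 for THBS3) and 146 in MTX1 (2816 counts). The strand setting of the counting is not given in the sources used here.

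Of the other matricellular genes, TGFBI and SPARC were lower and TNC was higher with iohexol. TGFBI (ENSG00000120708, chromosome 5, 136028895 to 136063818, plus strand) encodes an adhesion protein named for its induction by TGF-beta. It had 1438, 1449 and 1457 CPM in the control samples, 371, 379.5 and 354 with iohexol, 546, 552 and 554 with cisplatin and 1639.8, 1762 and 1805 with vancomycin. Both iohexol and cisplatin samples lay far below the control samples, iohexol samples lowest, and vancomycin samples somewhat above them. TGFBI was down-regulated 3.88-fold by iohexol (SE 0.077 on the log2 scale, adjusted p = 2.23e-08) and 2.63-fold by cisplatin (log2 fold change -1.40, SE 0.049, adjusted p = 2.16e-13). The rise with vancomycin was small (log2 fold change 0.22, SE 0.079, adjusted p = 0.0214). It lost its call with library size alone (0.14, adjusted p = 0.12), without a filter on low counts (0.20, adjusted p = 0.064) and without the 2nd or 3rd control sample or the 3rd vancomycin sample (adjusted p = 0.0895, 0.0599 and 0.0982).

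SPARC (ENSG00000113140, chromosome 5, 151661096 to 151687165, minus strand), a collagen-binding glycoprotein also called osteonectin, was down-regulated by iohexol and up-regulated by vancomycin. The level was 702, 723 and 696 CPM in the control samples, 477, 449 and 426 with iohexol, 658, 667 and 663 with cisplatin and 1141, 1184 and 1208 with vancomycin. No drug group overlapped the control samples, although the cisplatin samples were only slightly lower. The log2 fold change was -0.63 with iohexol (SE 0.079, adjusted p = 0.000171) and 0.69 with vancomycin (SE 0.080, adjusted p = 8.67e-08). With cisplatin SPARC was not called (-0.095, 95% interval -0.20 to 0.010, adjusted p = 0.111). Its direction there depended on the scaling, being 0.12 (adjusted p = 0.0311) with library size alone, and without the 1st control sample it was -0.10 (adjusted p = 0.0162).

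TNC (ENSG00000041982, chromosome 9, 115019578 to 115118257, minus strand) encodes tenascin C, which is scarce in most adult tissues and appears in wounds and tumors. It was up-regulated by iohexol and vancomycin and down-regulated by cisplatin. Control samples had 83.5, 90.9 and 99.5 CPM, iohexol samples 199, 218 and 203, cisplatin samples 41.4, 41.2 and 39.4 and vancomycin samples 396, 327 and 417. The 4 groups did not overlap, with cisplatin lowest, then control, iohexol and vancomycin. The log2 fold change was 1.20 with iohexol (SE 0.093, adjusted p = 3.8e-06), -1.17 with cisplatin (SE 0.077, adjusted p = 6.71e-10) and 2.02 with vancomycin (SE 0.10, adjusted p = 5.69e-14). POSTN (ENSG00000133110, chromosome 13, 37562583 to 37598844, minus strand), which encodes periostin, a relative of TGFBI, had 0, 1 and 6 counts in the control samples, 0, 0 and 2 with iohexol, 0, 0 and 2 with cisplatin and 1, 3 and 5 with vancomycin. It passed the filter on low counts in no comparison and was not tested, and a difference was not detectable at this depth.

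FBN1 was down-regulated by iohexol and cisplatin, while FBLN1 fell with cisplatin and rose with vancomycin. FBN1 (ENSG00000166147, chromosome 15, 48408306 to 48645849, minus strand), the main protein of microfibrils, had 248, 262 and 259 CPM in the control samples, 87.8, 105 and 108 with iohexol, 176, 173 and 169 with cisplatin and 322, 237 and 301 with vancomycin. Iohexol samples were lowest, cisplatin samples lay between them and the control samples, and vancomycin samples lay on both sides of the control samples. FBN1 was down-regulated by iohexol (log2 fold change -1.33, SE 0.10, adjusted p = 2.34e-06) and by cisplatin (-0.57, SE 0.057, adjusted p = 1.54e-07). With vancomycin it was not called (0.12, 95% interval -0.084 to 0.33, adjusted p = 0.305), but without the 2nd vancomycin sample the log2 fold change was 0.25 (adjusted p = 0.0171), and without the 1st it was 0.033.

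FBLN1 (ENSG00000077942, chromosome 22, 45502238 to 45601135, plus strand) encodes a calcium-binding glycoprotein that associates with fibronectin and elastic fibers. Its level was 429, 435 and 438 CPM in the control samples, 549, 538 and 483 with iohexol, 312, 313 and 312 with cisplatin and 593, 598 and 633 with vancomycin. None of the drug groups overlapped the control samples, cisplatin lying below and the others above. The log2 fold change was -0.47 with cisplatin (SE 0.052, adjusted p = 5.38e-07) and 0.44 with vancomycin (SE 0.081, adjusted p = 5.71e-05). With iohexol it was 0.29 (SE 0.082, adjusted p = 0.0264). That call was lost without a filter on low counts (adjusted p = 0.0629) and without the 1st, 2nd or 3rd control sample or the 1st or 2nd iohexol sample (adjusted p = 0.0722, 0.139, 0.0948, 0.0972 and 0.109).

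With each drug set against the same 3 control samples, 9 of the 10 genes were tested in every comparison. With iohexol, TNC and FBLN1 rose, 5 genes fell (THBS1, THBS2, TGFBI, SPARC and FBN1) and FN1 and THBS3 did not pass the test. Over all 15657 genes tested with iohexol, 11.2% were called higher and 9.77% lower. With cisplatin THBS2 rose, 7 genes fell and SPARC did not pass the test, against 29.2% higher and 30.6% lower of all 15876 genes tested. With library size alone 2 of the 9 genes, SPARC and THBS2, were called higher and 6 lower with cisplatin. In the vancomycin group 6 genes rose (FN1, THBS3, TGFBI, SPARC, TNC and FBLN1), THBS1 fell and THBS2 and FBN1 did not pass the test, against 29.0% higher and 28.8% lower of all 15819 genes tested. The median log2 fold change of the 9 genes was -0.63 with iohexol, -0.57 with cisplatin and 0.44 with vancomycin, beside 0.012, 0.0074 and -0.0084 over all genes tested.

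Changes of over 2-fold were fewer. With iohexol TNC rose and THBS1, TGFBI and FBN1 fell by over 2-fold, where 4.02% of all genes tested were called so in the upward and 1.25% in the downward direction. FN1, THBS1, TGFBI and TNC fell by over 2-fold with cisplatin and none of the 9 genes rose so far, against 8.72% lower and 7.62% higher of all genes. With vancomycin FN1, THBS3 and TNC rose and THBS1 fell by over 2-fold, against 10.8% higher and 7.65% lower of all genes. Samples of the drug and the control group did not overlap for 7 of the 9 genes with iohexol, 8 with cisplatin and 7 with vancomycin, beside 37.9%, 65.1% and 63.2% of all genes tested.

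**Figure D3:**
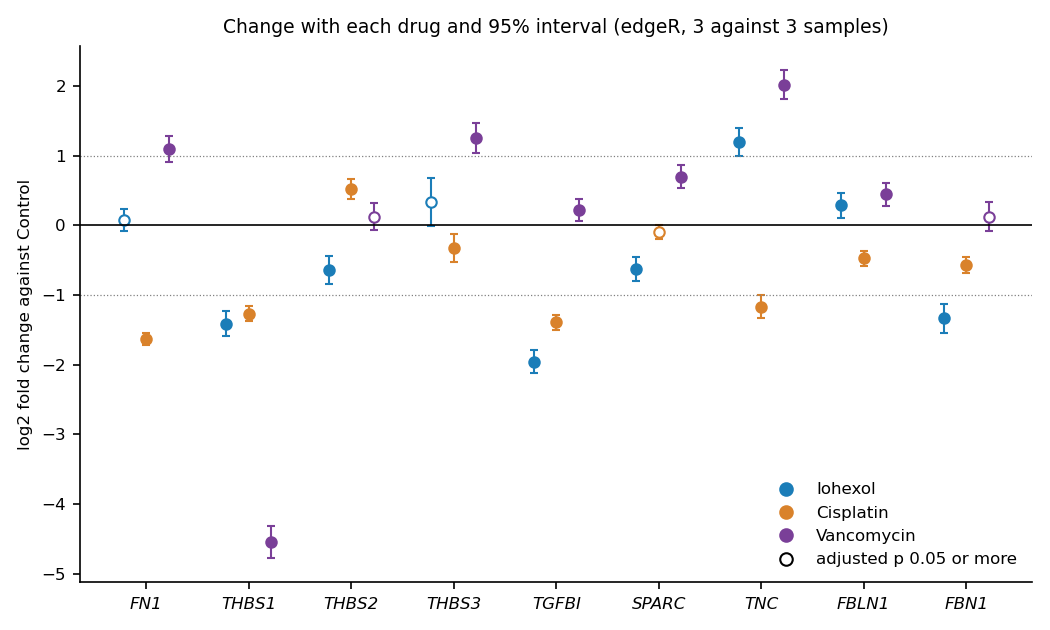
Log2 fold change of each tested gene with each drug compared to the control group, with its 95% interval, filled where the adjusted p was under 0.05. THBS1 was below 0 with all 3 drugs, from -1.27 with cisplatin to -4.54 with vancomycin, and TNC lay at 1.20, -1.17 and 2.02 with iohexol, cisplatin and vancomycin.

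The drugs were then compared with each other directly, in 3 comparisons within a fit of all 12 samples. The doses differed in kind and amount, so that each comparison is one of these treatments and not of equal doses. With iohexol set against cisplatin, FN1 (1.69), TNC (2.34), FBLN1 (0.74) and THBS3 (0.64) were higher by log2 fold change and THBS2 (-1.19), FBN1 (-0.78), TGFBI (-0.58) and SPARC (-0.56) lower, against 27.9% higher and 26.0% lower of all 17073 genes tested. The adjusted p of these 8 genes was 3.54e-04 or less. THBS1 was not called between these drugs (-0.16, 95% interval -0.35 to 0.022, adjusted p = 0.129), and with library size alone it was lower with iohexol (-0.29, adjusted p = 0.00947).

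Between iohexol and vancomycin, THBS1 was higher with iohexol by 3.07 on the log2 scale (SE 0.10, adjusted p = 3.16e-15), and the other 8 genes were lower, against 27.6% higher and 29.0% lower of all genes. TGFBI had the widest of these 8 differences (-2.24, SE 0.068, adjusted p = 1.67e-15). FBLN1 had the smallest (-0.21, adjusted p = 0.0121), which lost its call with library size alone (-0.0068, adjusted p = 0.941) and without the 3rd iohexol or the 3rd vancomycin sample (adjusted p = 0.0528 and 0.0594).

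Cisplatin and vancomycin differed in all 9 genes. THBS1 (3.23, SE 0.10, adjusted p = 9.67e-16) and THBS2 (0.36, SE 0.081, adjusted p = 0.000699) were higher with cisplatin and the other 7 genes higher with vancomycin, against 30.0% and 34.7% of all genes. FN1 was 6.83-fold and TNC 9.34-fold higher with vancomycin than with cisplatin (adjusted p = 2.51e-15 and 1.11e-15).

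Several of these genes have a long summed exon length, and this length moved with the change of all genes with cisplatin and vancomycin, but hardly with iohexol. FN1 has 17315 and FBN1 16057 bases of summed exons, and THBS3 the fewest of the 10 genes (4623). The median log2 fold change of all tested genes over 8 kb was -0.016 with iohexol, -0.29 with cisplatin and -0.17 with vancomycin. For genes up to 2 kb it was 0.017, 0.27 and 0.23. TNC (9636) and THBS1 (9158) are over 8 kb too. With cisplatin FN1 (-1.64), THBS1 (-1.27) and TNC (-1.17) lay further below 0 than the median of this length class, and FBN1 (-0.57) was nearer to it. With vancomycin THBS1 (-4.54) lay far below the median of the class, while FN1 (1.10), TNC (2.02) and FBN1 (0.12, not called) lay on the other side of 0. The part of length in these changes was not tested.

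**Figure D4:**
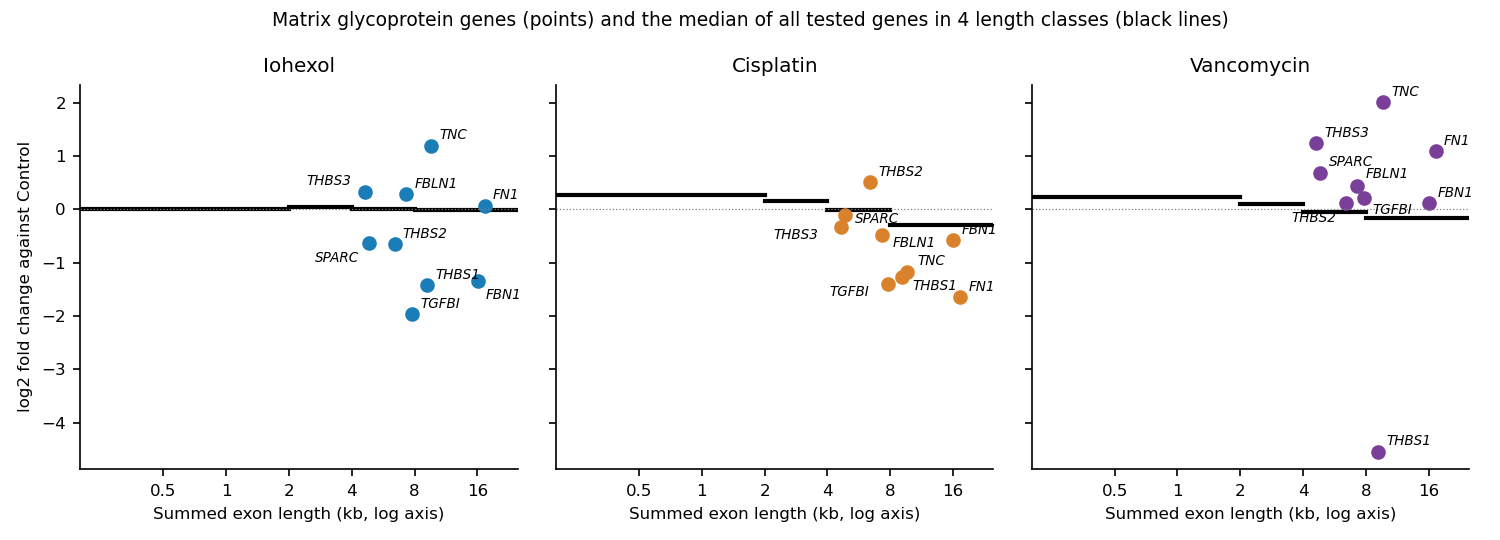
Log2 fold change of the 9 tested genes (points) against summed exon length in kb (log axis), with the median of all tested genes in 4 length classes (black lines), for each drug. In the class over 8 kb the median was -0.29 with cisplatin and -0.17 with vancomycin, where FN1 was at -1.64 and 1.10.

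Single libraries differed from the rest of their group for some of these genes. FN1 was 0.39 lower on the log2 scale in the 2nd vancomycin library than in the other 2, and FBN1 was lower by the same amount, TNC by 0.32 and THBS2 by 0.20, while SPARC, TGFBI and FBLN1 differed by 0.012, 0.034 and -0.035. Without the 2nd vancomycin library the log2 fold change of FN1 with vancomycin was 1.22 and that of TNC 2.12. THBS1 was 0.39 higher in the 1st vancomycin library than in the other 2, and without the 1st its log2 fold change was -4.68.

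The median difference over all genes over 8 kb was -0.097 in the 2nd vancomycin library, 0.098 in the 1st and 0.13 in the 3rd iohexol library. In the 3rd iohexol library THBS3 was 0.55 and FBLN1 0.17 lower than in the other 2, and FBN1 was 0.17 higher. Without the 3rd iohexol library 3 of the 9 genes rose with iohexol (TNC, THBS3 and FBLN1) and 5 fell. Over all genes 2377 were then called higher and 2167 lower, in place of 1754 and 1529.

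Other genes of the matrix were then counted from 4 lists, to be read beside the shares of all genes called, which were 11.2% higher and 9.77% lower with iohexol, 29.2% and 30.6% with cisplatin and 29.0% and 28.8% with vancomycin. Of 40 further matricellular proteins and matrix glycoproteins, 26 were tested against the control group with each drug. With iohexol 7 rose, among them NID2 (nidogen 2 of the basement membrane, 2.04, adjusted p = 7.05e-08). Another 12 fell with iohexol, among them LTBP2, a gene of the fibrillin family (-1.71, adjusted p = 4.33e-07). With cisplatin 7 rose and 15 fell, with SPOCK1, a testican proteoglycan related to SPARC (-1.95, adjusted p = 7.86e-14), and SPP1, which encodes osteopontin (-1.63, adjusted p = 4.29e-13), having the smallest p. With vancomycin 14 of the 26 rose and 6 fell, the latter near the 28.8% of all genes. With library size alone 12 rose and 7 fell with vancomycin. CTGF (-2.42, adjusted p = 1.69e-16) and CYR61 (-2.19, adjusted p = 9.25e-16), matricellular genes known as targets of YAP and TEAD, fell with vancomycin. The medians of this list were -0.29, -0.44 and 0.55 with iohexol, cisplatin and vancomycin.

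Of 14 cell surface receptors for these glycoproteins, 10 were tested. With cisplatin 9 of them fell, including ITGB6 (-2.81, adjusted p = 4.87e-12), an integrin subunit that binds fibronectin and latent TGF-beta, and ITGB3 (-1.39, adjusted p = 1.4e-11), and 0 rose, beside 30.6% lower and 29.2% higher of all genes. With library size alone 7 fell and 1 rose. With iohexol 1 rose and 3 fell, with ITGB1 (-0.57, adjusted p = 0.000956) and the thrombospondin receptor CD47 (-0.60, adjusted p = 0.00131) having the smallest p. With vancomycin 4 of 10 rose and 2 fell, near the shares of all genes. ITGA5, whose product forms the classic fibronectin receptor with integrin beta 1, rose (1.16, adjusted p = 1.63e-10) and ITGB6 fell (-1.24, adjusted p = 2.51e-09). The medians of the receptors were -0.14, -0.88 and 0.13.

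All 10 listed genes for the processing and cross-linking of these proteins were tested. With iohexol 1 rose and 5 fell, with the transglutaminase TGM2 (-1.17, adjusted p = 2.44e-06) and the lysyl oxidase LOX (-0.85, adjusted p = 6.97e-05) falling. With cisplatin 1 rose and 7 fell, among them LOXL2 (-2.36, adjusted p = 7e-14) and LOX (-1.46, adjusted p = 5.64e-11). With library size alone 2 rose and 4 fell with cisplatin. With vancomycin 6 rose and 2 fell, LOX (1.44, adjusted p = 1.65e-12) and the procollagen proteinase BMP1 (1.15, adjusted p = 3.68e-10) rising. The medians were -0.43, -0.27 and 0.44.

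Among 10 genes of TGF-beta ligands, receptors and Smads, all tested, 1 rose and 4 fell with iohexol, 1 rose and 8 fell with cisplatin and 2 rose and 4 fell with vancomycin, the last near the 29.0% and 28.8% of all genes. With iohexol the co-receptor TGFBR3 rose (1.91, adjusted p = 5.37e-06) and the ligand TGFB2 fell (-0.70, adjusted p = 5.76e-04). With cisplatin SMAD3, which carries the TGF-beta signal to the nucleus, fell (-1.31, adjusted p = 3.44e-12) and the ligand TGFB3 rose (1.99, adjusted p = 7.61e-08) to a mean of 9.68 CPM from 2.45 CPM. With vancomycin TGFB2 (-2.27, adjusted p = 1.19e-15) and SMAD3 (-0.95, adjusted p = 1.17e-09) fell. With library size alone 1 rose and 4 fell with vancomycin. The medians were -0.26, -0.50 and -0.14.

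**Figure D5:**
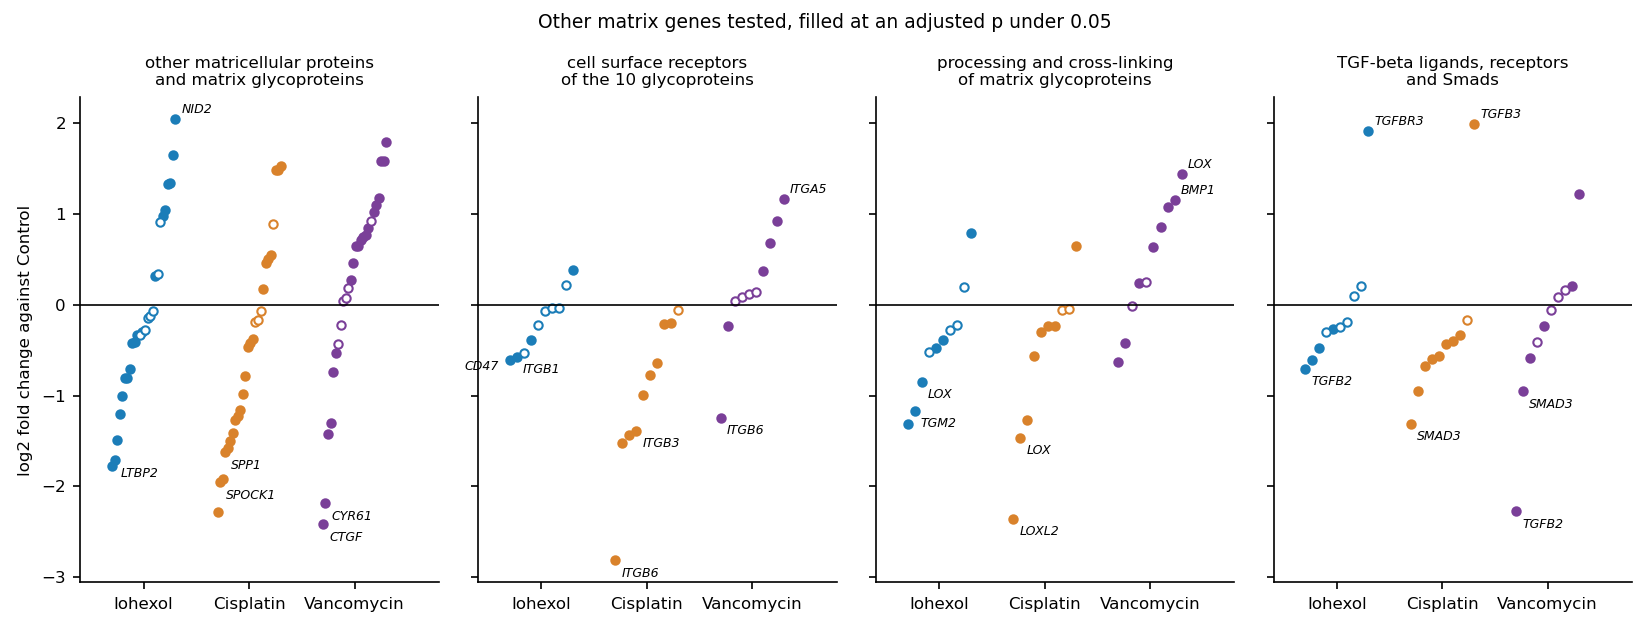
Log2 fold change compared to the control group of every tested gene of 4 lists (other matricellular proteins and matrix glycoproteins, receptors, processing and cross-linking, TGF-beta genes), sorted within each drug and filled where the adjusted p was under 0.05. Of 10 receptors tested, 9 were called lower with cisplatin, and the medians of the processing genes were -0.43 with iohexol and 0.44 with vancomycin.

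For each of the 9 tested genes, the genes most like it were those with the smallest root mean square difference in log2 CPM over the 12 samples, after centering each gene on its mean, among 17072 others. The nearest to FN1 was LRP1, an endocytic receptor for matrix proteins, with a difference of 0.13 beside an SD of FN1 itself of 1.04. SEL1L3 (0.16) and NDRG1 (0.17) followed. LRP1 had a log2 fold change of -1.52 with cisplatin (adjusted p = 2.46e-11) and 0.92 with vancomycin (adjusted p = 2.66e-07). Because LRP1 was picked for its likeness to FN1 over these same samples, these values are no separate evidence. The nearest genes to TGFBI were INHBA (0.22), an activin subunit, PMEPA1 (0.24) and PDGFB (0.27). THBS1 had no gene closer than TNFAIP6 (0.50), PEG10 (0.50) and HIF1A-AS2 (0.58). TNC was nearest to ALOX5 (0.23) and also near to TTLL1 (0.26), and FBN1 to RUNX2 (0.13), JAK3 (0.14) and the lysyl oxidase LOXL1 (0.19). For THBS2 the nearest genes were TNFRSF10D (0.10), HELZ2 (0.11) and LHX1 (0.12), and for THBS3 they were SPINT1 (0.10), MELTF (0.12) and MXRA8 (0.12). SPARC was nearest to RPL19 (0.079), CLIC1 (0.087) and RPS15A (0.090), and FBLN1 to UBE2H (0.053), SNX9 (0.054) and LAMP1 (0.055). The points compared are the same 12 libraries in 4 groups, and genes that vary little lie near many others by this measure.

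Fibroblast markers were read beside these results, since fibroblasts are a main source of these glycoproteins. The 7 markers summed to 115 to 129 CPM in control samples, 106 to 116 in iohexol, 105 to 109 in cisplatin and 241 to 277 in vancomycin samples, and 4 of the 7 had at least 3 counts in every sample of each group. LUM was at 168 to 199 CPM with vancomycin against 69.0 to 91.4 in the control group, and DCN at 28.3 to 34.5 against 11.8 to 12.5. COL1A1 had a mean of 41.8 CPM with vancomycin against 30.6 in the control group, and PDGFRB 1.36 against 0.607. Of the 4 fibroblast markers tested with vancomycin, LUM, DCN and COL1A1 were called higher, beside 29.0% of all genes. PDGFRB was called higher too, but it passed the filter on low counts only through the vancomycin samples. It had 1.13 to 1.66 CPM there and 0.502 to 0.726 CPM in control samples, so its call adds nothing to that count. With cisplatin 2 of 4 were called higher and 2 lower, and with iohexol 0 of 3 higher and 1 lower. PDGFRB was among those higher with cisplatin, where it passed the filter only through the cisplatin samples (0.985 to 1.82 CPM), and it was not tested with iohexol. The fibroblast genes PDGFRA and COL1A2 had 0 counts in all control and all vancomycin samples, and COL3A1 was at 0.197 CPM or less there. Epithelial markers summed to 872 to 978 CPM in control samples, 707 to 863 in iohexol, 1370 to 1425 in cisplatin and 1290 to 1417 in vancomycin samples. Proximal tubule markers summed to 689 to 826, 808 to 1018, 370.2 to 393 and 785 to 883 CPM. The part of these shifts in the changes of the 10 genes was not tested.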

How the data were processed

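The authors deposited whole-number read counts per gene for 58735 genes in 12 samples, without normalization. The submitters' processing notes name CASAVA 1.8, fastp, HISAT2 2.0.5, featureCounts 1.5.0-p3 and DESeq2 1.20.0, and the table's positions are on GRCh38. The strand setting is not given in the sources used here. All genes of the table were found in GENCODE 29, 58724 with the same start and end.

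Counts were analysed in R 4.3.3 with edgeR 4.0.16 (TMM, glmQLFit, glmQLFTest), each drug in a fit of 3 against 3 samples and the drugs against each other in a fit of all 12. Low genes were removed by filterByExpr (min.count 10, min.total.count 15). Benjamini-Hochberg adjustment covered all genes of a fit, and the threshold was 0.05. The SE was the size of the log2 fold change over the square root of F. Log2 CPM used a prior count of 2. The genes named were all 10, the 3 nearest to each tested one, and in each list of matrix genes the 2 with the smallest p for each drug. Some genes that these rules cover are left out and are not reported here. The genes and lists were chosen with earlier results of these data known. Pairs of replicates differed beyond sampling noise (chi-square over degrees of freedom 2.31 to 16.7) and were kept as separate samples. Alternatives were DESeq2 1.42.0, voom of limma 3.58.1, RLE factors, library size only, no filter, a fit of all 12 samples, the replicate number as a block and leaving out each sample. The edgeR steps for a drug against the control group were tried on simulated counts, and the other steps were not. Figures were drawn with matplotlib 3.10.9.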

Additional observations from a re-analysis of the deposited data

How the results depend on the processing

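Of 117 values of the 9 tested genes over 13 alternatives, 109 with iohexol, 114 with cisplatin and 111 with vancomycin kept their direction and their side of the threshold. Between drugs 98 of 99 (iohexol and cisplatin), 96 of 99 (iohexol and vancomycin) and all 99 (cisplatin and vancomycin) did. The number of the 10 genes called higher with iohexol was 2, and 1 without a filter, with the replicate block, and in a range of 1 to 3 when a sample was left out, FBLN1 being the gene lost and THBS3 the one gained without the 3rd iohexol sample. With library size only, the number called higher with cisplatin was 2 in place of 1, and SPARC reversed from -0.095 to 0.12. That scaling moved the median of all genes by 0.22 with cisplatin, 0.071 with iohexol and -0.076 with vancomycin, by -0.13 between iohexol and cisplatin, 0.21 between iohexol and vancomycin and 0.33 between cisplatin and vancomycin. Over all genes it changed the numbers called higher and lower from 4643 and 4857 to 6929 and 3241 with cisplatin, from 1754 and 1529 to 2237 and 1078 with iohexol, from 4770 and 4447 to 3950 and 5643 between iohexol and cisplatin, from 4711 and 4956 to 6676 and 3505 between iohexol and vancomycin and from 5121 and 5927 to 7816 and 3952 between cisplatin and vancomycin. Of all genes with iohexol, 1027 were called higher and 822 lower without the 2nd control sample, 1159 higher without the 3rd control sample, and 1123 higher and 988 lower without the 2nd iohexol sample. The cause of these shifts was not tested.

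The replicate numbers are shared by all groups, but same-numbered samples did not deviate together (18 pairs, mean correlation -0.021, from -0.18 to 0.10, beside 0.011 for other numbers), and 0 of 12 samples correlated best with its own number in every other group. With the replicate block 915 genes were called lower with iohexol, FBLN1 had an adjusted p of 0.0998, and no other call of the 10 genes changed.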
